A study of Mus musculus with 7 samples.

Results

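The 10 keratin genes examined here mark the epithelia of the ocular surface, or simple epithelium, and were followed library by library in mouse retinal pigment epithelium (RPE). They are Krt5, Krt14, Krt15, Krt12, Krt4, Krt13, Krt6a, Krt6b, Krt8 and Krt18, which are 10 of the 52740 genes in the count table and 10 of the 16990 genes that passed the filter on low counts. The 10 genes were selected by name because earlier results on these same libraries had shown several of them at different levels in the genotypes, so their differences between WT and LC3b-/- are given as a description and without a test. RNA sequencing covered RPE of 4 WT mice, of which 3 were female, and of 3 LC3b-/- mice, of which 2 were female, each 24 months old and each giving 1 library. The WT mice were C57BL6/J and the LC3b-/- mice came, per the methods, from the strain B6;129P2-Map1Lc3btm1Mrab/J, which lacks Map1lc3b, the gene of the autophagy protein LC3b, in every tissue, so strain background may differ together with the targeted gene. The mouse names also carry a number that differs between the genotypes. Its meaning is not stated, and it cannot be told apart from genotype. Within LC3b-/- this number also differs between the females and the male, so there it cannot be told apart from sex. For isolation of RPE, the eyes were cleaned of muscle and connective tissue, the cornea, lens and ciliary body were cut away, the neural retina was lifted off after hyaluronidase, and RPE sheets were shaken loose after trypsin. The 4 WT libraries are named F1, F2, F3 and M1 and the 3 LC3b-/- libraries F1, F3 and M, with F for a female and M for a male mouse, and values are given in that order.

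Keratins are the intermediate filament proteins of epithelial cells, and a filament is built from a type I and a type II chain. Simple epithelia, the RPE among them, use the type II chain Krt8 with the type I chain Krt18. The basal layer of stratified epithelia uses Krt5 with Krt14 and Krt15, the corneal epithelium adds Krt12 as it differentiates, the mucosal type of differentiation seen in conjunctiva adds Krt4 with Krt13, and Krt6a and Krt6b are keratins of wounded or rapidly renewing epithelium. The first 8 genes are called stratified keratins here, and Krt8 and Krt18 simple keratins.

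The libraries held 24495952 to 35616134 counts. Map1lc3b was at 104 to 130 CPM (counts scaled to a common library size with TMM normalization factors) in WT and at 6.76 to 8.33 CPM in LC3b-/-, so each library matched its labelled genotype. All 10 RPE markers had counts in the libraries, with Best1, a chloride channel of RPE, the lowest at 0.861 to 1.71 CPM. In edgeR's quasi-likelihood test, 40 of 16990 genes (0.235%) passed an adjusted p of 0.05 and a fold change of 1.5, and none of the 10 keratins was among them. Without adjustment, 6 keratins were higher at p under 0.05, where 13.5% of all genes tested were, and 1, Krt18, was lower. DESeq2 called 5 of them higher (Krt15, Krt4, Krt13, Krt6a and Krt6b), against 6.85% of all genes. The genotypes did not overlap in 8 keratins, 7 of them higher and 1 lower in LC3b-/-, where 22.3% of all genes did not overlap in either direction. Since these values chose the genes, nothing is read from these counts. The median log2 fold change over the 10 keratins was 3.57, where the median over all genes tested was 0.01.

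Because Krt6a and Krt6b are near-identical genes that lie close together on chromosome 15, their sequences decide how far their counts can be told apart. Their coding sequences were identical at 1625 of 1662 aligned bases (97.8%), where the other 19 pairs of keratins of the same type were identical at 60.9% to 79.9%. The longest stretch with no difference ran over 280 bases, longer than the 100-base reads. The following 60 bases are the part of the coding sequence, positions 817 to 876 counted from the start codon, where they differ most. They are shown in the annotated transcripts of GRCm39, and capitals mark the 10 bases that differ.
Krt6a: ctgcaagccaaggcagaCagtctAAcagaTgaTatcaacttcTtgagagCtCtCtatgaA
Krt6b: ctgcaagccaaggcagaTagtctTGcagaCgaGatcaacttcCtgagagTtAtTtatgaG
A read from such a stretch can be assigned to 1 of the genes, while 34.0% of the 100-base windows of the Krt6a transcript and 30.6% of those of Krt6b also occur in another gene, mostly in each other. The share was 16.9% for Krt8, all of it in the pseudogene Krt8-ps, 2.68% for Krt14 (with Krt16) and 2.37% for Krt5 (with Krt6a and Gm5478), and no such window was found for Krt15, Krt12, Krt4, Krt13 or Krt18. The split of counts between Krt6a and Krt6b is therefore an estimate, and their sum is the safer quantity.

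Since 7 of the stratified keratins were high and low in the same libraries, the upstream sequences of the 10 keratins were searched for short motifs, in the 250 bases before the start of each canonical transcript on GRCm39 and on both strands. TGANTCA, with any base at N, was present for 4 of the 10 keratins, Krt14, Krt15, Krt4 and Krt13. It was also present for 6.17% of the 21770 protein-coding promoters of the same length. This pattern is looser than the letters bound by AP-1 factors, which have C or G at N. Only Krt4 held such a match (TGAGTCA), while Krt14, Krt15 and Krt13 held TGAATCA. The share of promoters with the narrower letters was not counted. TATAAA was present for Krt15 and Krt12 and for 11.9% of promoters, while GGGCGG (36.3%) and CCAAT (36.5%) were found for 0 of the 10. A match is a description of letters and not a site of binding. The stretches of Krt14, Krt4 and Krt13 are printed because they hold TGANTCA, which is in capitals, together with any TATAAA; each is written along the gene's own strand, the minus strand, and ends at the base before the transcript start.
Krt14, chr11:100098491-100098740: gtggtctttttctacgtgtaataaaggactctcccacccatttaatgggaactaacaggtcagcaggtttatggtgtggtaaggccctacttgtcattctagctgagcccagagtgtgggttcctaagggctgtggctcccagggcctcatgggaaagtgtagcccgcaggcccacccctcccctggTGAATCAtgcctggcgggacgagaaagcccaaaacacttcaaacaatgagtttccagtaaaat
Krt4, chr15:101833171-101833420: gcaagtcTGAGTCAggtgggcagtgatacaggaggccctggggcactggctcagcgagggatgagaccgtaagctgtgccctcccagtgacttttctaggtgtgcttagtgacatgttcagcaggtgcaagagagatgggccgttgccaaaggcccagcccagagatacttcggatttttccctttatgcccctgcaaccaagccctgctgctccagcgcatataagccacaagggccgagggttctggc
Krt13, chr11:100012393-100012642: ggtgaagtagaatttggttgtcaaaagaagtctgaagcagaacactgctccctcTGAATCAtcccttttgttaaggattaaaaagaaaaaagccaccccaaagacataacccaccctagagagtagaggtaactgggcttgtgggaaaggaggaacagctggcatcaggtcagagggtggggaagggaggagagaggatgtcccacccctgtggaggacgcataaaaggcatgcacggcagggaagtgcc
The first base of the motif lay 63 bases before the start for Krt14, 243 for Krt4 and 196 for Krt13, and 213 for Krt15, so its distance was not shared.

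**Figure D1:**
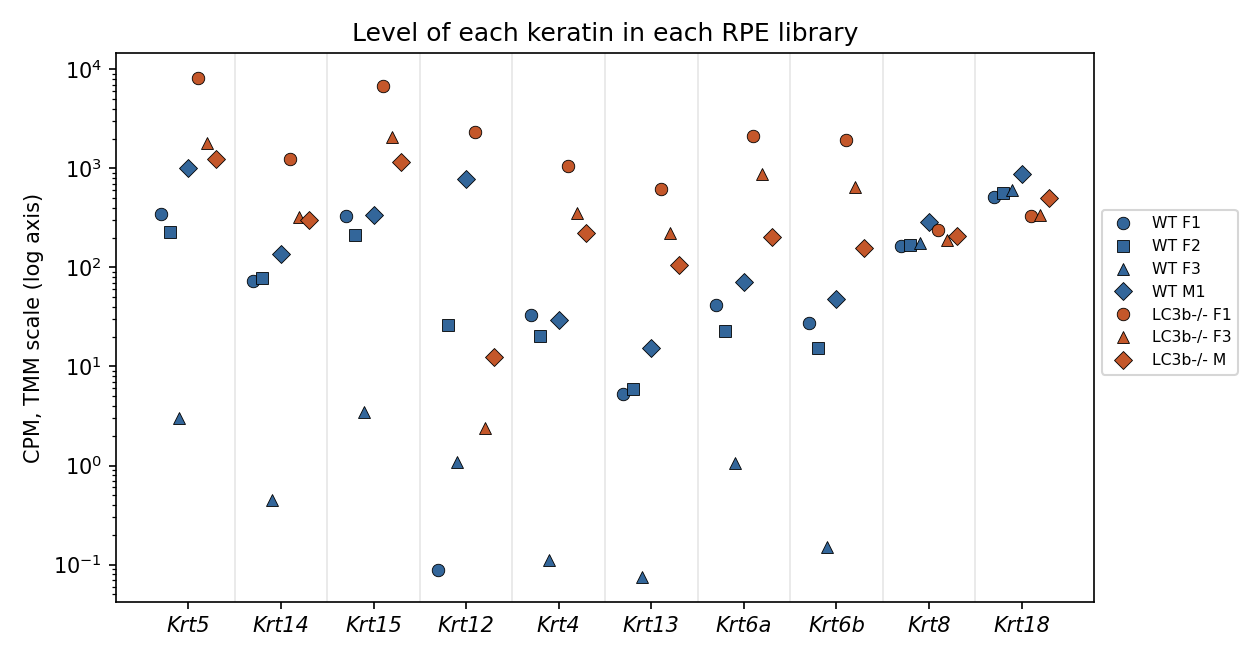
Level of each of the 10 keratins in each of the 7 RPE libraries, in CPM on a log axis; blue symbols are WT, orange symbols are LC3b-/-, and each symbol is 1 mouse. WT F3 is the lowest library for 7 of the 8 stratified keratins, LC3b-/- F1 is the highest for all 8, and Krt12 is high in WT M1 and LC3b-/- F1 alone. Krt8 and Krt18 vary less, 1.77-fold and 2.66-fold between highest and lowest library, and Krt18 is lower in every LC3b-/- library than in every WT library.

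The basal keratins were present in 6 of the 7 libraries, at no less than 73.4 CPM, and close to absent in WT F3. Krt5 (ENSMUSG00000061527, chr15:101615505-101621346), the type II chain of basal cells, was at 348, 230, 3.0 and 1021 CPM in WT and at 8195, 1801 and 1257 CPM in LC3b-/-. The groups did not overlap, but WT M1 and LC3b-/- M, the 2 males, lay next to each other in the order of the libraries. The log2 fold change was 3.23 (SE 1.42), from a mean of 401 ± 438 CPM (SD, n = 4) to 3751 ± 3858 CPM (SD, n = 3), so the SD was about as large as the mean in both genotypes. Krt14 (ENSMUSG00000045545, chr11:100093988-100098490), the type I partner of Krt5, was at 73.4, 78.3, 0.449 and 137 CPM in WT and at 1234, 322 and 299 CPM in LC3b-/-, a log2 fold change of 3.09 (SE 1.29). The same library order of extremes was seen, with 12 counts in WT F3 and 30634 in LC3b-/- F1. Krt15 (ENSMUSG00000054146, chr11:100022584-100026775), a further type I chain of basal cells, was at 328, 215, 3.44 and 341 CPM in WT and at 6790, 2053 and 1160 CPM in LC3b-/-, a log2 fold change of 3.91 (SE 1.25). Its WT libraries other than F3 were close to each other, and every LC3b-/- library lay above them. Per kilobase of transcript, Krt15 had the highest mean level of all 10 keratins in LC3b-/- (1961 CPM per kilobase), ahead of Krt5 at 1697, whereas in WT it stood behind Krt18 at 444 and Krt5 at 181 with 131.

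Krt12, the keratin of the corneal epithelium, did not follow the genotype. Krt12 (ENSMUSG00000020912, chr11:99306492-99313086) was at 0.0878, 26.2, 1.09 and 786 CPM in WT and at 2313, 2.41 and 12.4 CPM in LC3b-/-. It was high in a single library of each genotype, WT M1 with 20437 counts and LC3b-/- F1 with 57441 counts, and WT F1 held 3 counts. The groups overlapped, with WT M1 above LC3b-/- F3 and M, and the log2 fold change of 1.93 had an SE of 2.66. Without LC3b-/- F1 it turned to -4.78, and without WT M1 it was 6.41. Relative to Krt5, Krt12 had a ratio of counts of 0.769 in WT M1 and 0.282 in LC3b-/- F1, but 0.00134 in LC3b-/- F3 and 0.00989 in LC3b-/- M, where Krt5 was also abundant. In LC3b-/- F3 and M, abundant Krt5 thus stood beside very little Krt12.

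The mucosal keratins were at low levels in WT and higher in every LC3b-/- library. Krt4 (ENSMUSG00000059668, chr15:101826970-101833170), the type II chain of non-keratinized mucosa, was at 33.2, 20.1, 0.112 and 29.6 CPM in WT and at 1047, 357 and 221 CPM in LC3b-/-. The lowest LC3b-/- library lay above the highest WT library, and the log2 fold change was 4.70 (SE 1.30). Krt13 (ENSMUSG00000044041, chr11:100008153-100012392), its type I partner, was at 5.33, 5.92, 0.0749 and 15.3 CPM in WT and at 618, 221 and 106 CPM in LC3b-/-. Its log2 fold change of 5.56 (SE 1.25) was the highest of the 10, and the groups did not overlap. WT F3 held 2 counts of Krt13 and 3 of Krt4, so both were at or below the level of 3 counts taken as the floor there. Relative to Krt5, Krt4 had a ratio of counts of 0.029 to 0.0954 in the 4 WT libraries and of 0.128 to 0.198 in the 3 LC3b-/- libraries, with no overlap.

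The wound-associated keratins were likewise higher in every LC3b-/- library. Krt6a (ENSMUSG00000058354, chr15:101598345-101602742) was at 41.7, 22.9, 1.05 and 71.4 CPM in WT and at 2115, 876 and 202 CPM in LC3b-/-, a log2 fold change of 4.96 (SE 1.28). Krt6b (ENSMUSG00000023041, chr15:101584458-101588722) was at 27.7, 15.4, 0.15 and 48.0 CPM in WT and at 1953, 646 and 157 CPM in LC3b-/-, a log2 fold change of 5.33 (SE 1.48). Neither gene overlapped between the genotypes, and LC3b-/- M was the lowest LC3b-/- library for both. Summed over both genes, so that the split between them does not matter, the level was 69.4, 38.2, 1.2 and 119 CPM in WT and 4068, 1521 and 359 CPM in LC3b-/-. The ratio of Krt6b to Krt6a counts was 0.665 to 0.673 in WT F1, F2 and M1, 0.143 in WT F3, where Krt6b was at 0.15 CPM, and 0.737 to 0.923 in LC3b-/-.

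The simple keratins stood apart from the other 8. Krt8 (ENSMUSG00000049382, chr15:101905133-101912917), the type II chain of simple epithelium, was at 163, 169, 176 and 287 CPM in WT and at 241, 188 and 207 CPM in LC3b-/-. The groups overlapped, and the log2 fold change was 0.09 (SE 0.23). Krt18 (ENSMUSG00000023043, chr15:101936615-101940462), its type I partner, was at 513, 561, 606 and 875 CPM in WT and at 329, 335 and 508 CPM in LC3b-/-. It was the single keratin of the 10 with every LC3b-/- library below every WT library, by a narrow margin between LC3b-/- M and WT F1, and its log2 fold change was -0.71 (SE 0.26). The ratio of Krt8 to Krt18 counts was 0.29 to 0.329 in WT, below the 0.407 of LC3b-/- M, the 0.563 of LC3b-/- F3 and the 0.734 of LC3b-/- F1. Set against Rpe65, the retinoid isomerase of RPE, Krt18 had a ratio of counts of 0.221 to 0.263 in WT and of 0.238 to 0.375 in LC3b-/-, and these ranges overlapped. Krt8 had a ratio to Rpe65 of 0.0721 to 0.0791 in WT and of 0.0968 to 0.275 in LC3b-/-, with no overlap. Krt18 and the sum of the RPE markers were both lower in the LC3b-/- libraries, while Krt8 was not. The reason was not tested, and in bulk samples fewer cells of a type and less RNA per cell cannot be told apart.

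**Figure D2:**
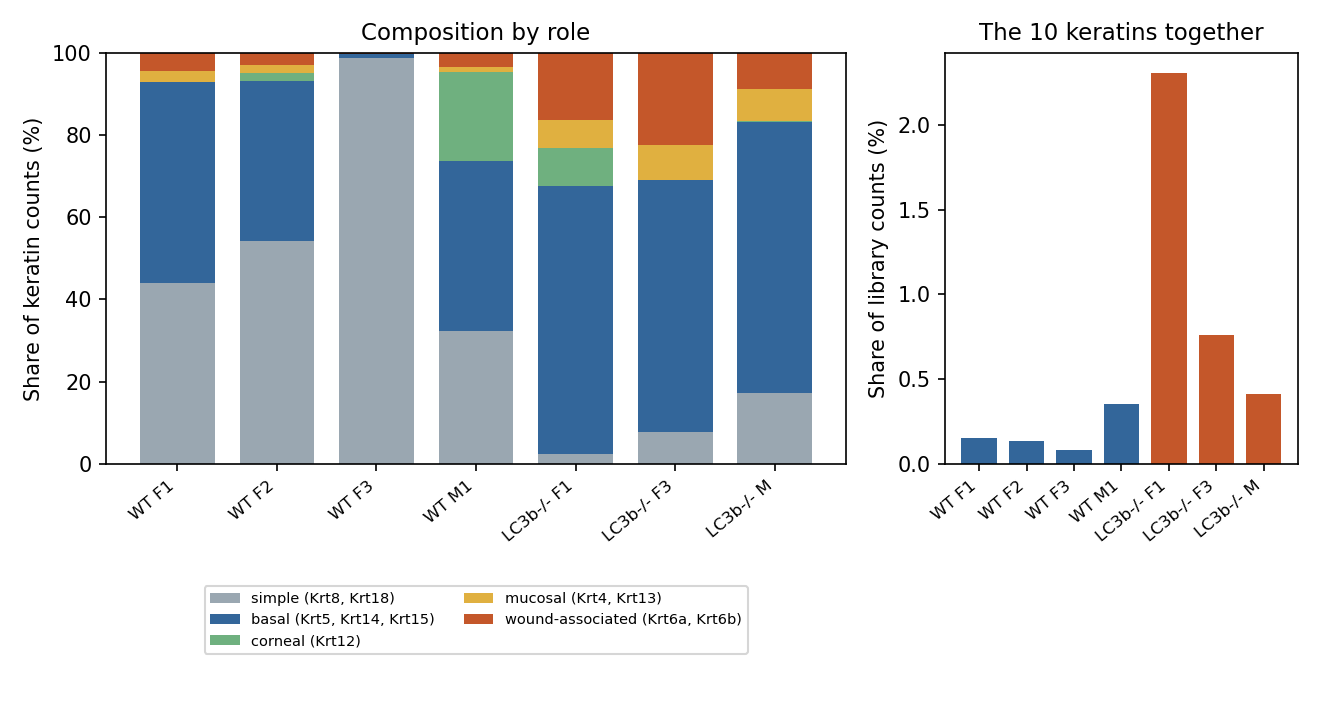
Left, share of the counts of the 10 keratins that each role takes in each library, in percent; right, share of all counts of a library taken by the 10 keratins together, in percent (bars are single libraries). Simple keratins take 98.8% of the keratin counts in WT F3 and 2.3% in LC3b-/- F1.

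As a family, the 10 keratins made up 0.0802% to 0.352% of a library's counts in WT and 0.413% to 2.31% in LC3b-/-. The stratified keratins gave 55.9%, 45.7%, 1.18% and 67.8% of these keratin counts in WT and 97.7%, 92.3% and 82.7% in LC3b-/-. The keratin profile of WT F3 was therefore almost wholly Krt8 and Krt18, while the other 6 libraries carried both kinds. Within the counts of the 8 stratified keratins alone, mucosal keratins gave 1.84% to 4.49% in WT and 6.86% to 9.58% in LC3b-/-, with no overlap. Wound-associated keratins gave 4.87% to 12.8% and 10.5% to 24.2%, and WT F3, with few counts of them, lay above LC3b-/- M. Basal keratins gave 61.2% to 87.4% and 66.5% to 79.5%, which overlapped. By contrast, the ratio of Krt5 to Krt14 counts was 2.94 to 7.44 in WT and 4.21 to 6.64 in LC3b-/-, while the Krt5 level itself spanned 2736-fold between its highest and lowest library.

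**Figure D3:**
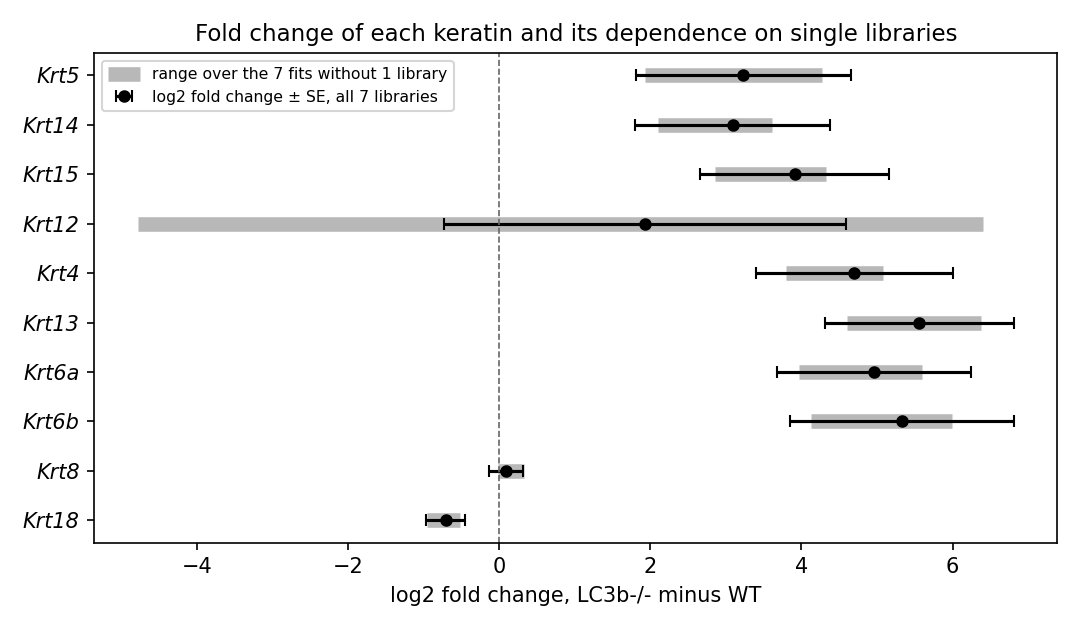
Log2 fold change of each keratin, LC3b-/- minus WT, with its standard error (black) and the range over the 7 fits that each leave out 1 library (grey). The range of Krt12 runs from -4.78 to 6.41, that of Krt8 spans 0, and those of the other 8 keep their sign.

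Among the 8 stratified keratins, LC3b-/- F1 was the highest library for all 8 and WT F3 the lowest for 7, with Krt12 lowest in WT F1. Leaving out LC3b-/- F1 brought the median log2 fold change of the 10 keratins from 3.57 to 2.48, and leaving out WT M1 brought it to 4.60. Without both LC3b-/- F1 and WT F3, a choice made after the values were seen, the median was 2.05 and 7 of the 8 stratified keratins were still higher in LC3b-/-. Between females alone, the difference in mean log2 CPM was 5.94 for Krt5, 6.95 for Krt4 and 7.95 for Krt6b, and between the single male of each genotype it was 0.30, 2.90 and 1.71. For Krt12 it was 5.50 between females and -5.97 between males. The female differences include WT F3, where Krt5 had a log2 CPM of 1.61 against 8.44 in WT F1 and 7.85 in WT F2. The edgeR fit in females only gave a log2 fold change of 4.69 for Krt5, 5.30 for Krt4 and 6.49 for Krt6b. A sex difference cannot be read from these values. The interaction of genotype and sex passed the threshold for 0 of the 10 keratins in edgeR, with 1 male per genotype.

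The genes whose profile over the 7 libraries was closest to a keratin were named by the root mean square difference of centred log2 CPM. For Krt5 these were Trim29, a tripartite-motif protein of epithelia (0.18), Aqp3, a water and glycerol channel (0.21), Calml3 (0.23), Lypd3 (0.34) and Krt14 (0.42). For Krt4 they were Krt6b (0.56), then Cstdc5, the desmosomal cadherin Dsg3 and Krt15 (0.62 each), and Tmprss11b (0.65). Krt12 had no equally close neighbour: Fam83a stood at 1.39, Lypd2 at 1.64, the water channel Aqp5 at 2.47, Tmprss11a at 2.90 and the corneal crystallin Aldh3a1 at 2.95. These 5 genes were highest in LC3b-/- F1 and next highest in WT M1, as Krt12 was. The neighbours of Krt8 were Cox7a1, Polr2h, Nhsl3, Pmf1 and Hint3, at 0.10 to 0.12, and those of Krt18, added after the values were seen, were St13, Calm3, Eci1, Nudt12 and Spire2, at 0.06 to 0.07. With a prior count of 0.5 in place of 2, the list kept 3 of 5 neighbours for Krt5, 4 for Krt12, 3 for Krt4 and 5 each for Krt8 and Krt18.

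Of 44 further protein-coding keratin genes, 32 had a count and 12 were tested. In LC3b-/-, 10 of the 12 were higher and 2 lower, with a median log2 fold change of 3.77, and edgeR called none (7 were higher at an unadjusted p under 0.05, against 13.5% of all genes tested, and DESeq2 called 7 of these 12 higher, against 6.85%). Krt19, a keratin of simple and mucosal epithelia, was at 18.2, 9.2, 1.2 and 14.6 CPM in WT and at 604, 285 and 45.7 CPM in LC3b-/- (log2 fold change 4.85, SE 1.06, edgeR adjusted p = 0.0906). Krt17, which accompanies Krt6 in wounded epithelium, was at 25.1, 9.78, 0.374 and 22.7 CPM and at 428, 152 and 52.3 CPM (log2 fold change 3.86, SE 1.17, edgeR adjusted p = 0.123). Krt16, its relative, had a log2 fold change of 5.10 (SE 1.19, edgeR adjusted p = 0.0951), and shares sequence with Krt14. Krt7 overlapped between the genotypes, with 15.4 CPM in WT F1 and 9.94 in WT F2 above the 7.5 CPM of LC3b-/- M (log2 fold change 4.04). The smallest edgeR adjusted p of the 12 was that of Krt80, 0.0842, at a log2 fold change of 4.05 (SE 0.73). Krt75 and Krt78 were low in WT, at no more than 0.498 CPM, and had log2 fold changes of 5.68 and 3.69. Krt75, with at most 7 counts in a WT library, passed the filter through its LC3b-/- counts. Krt78, with at most 17 counts in a WT library, and Krt24, with at most 23, passed it only together with theirs. The direction of these keratins was therefore not independent of the filter, and the tally of the 12 is a description. The other 5 overlapped between the genotypes except Krt10, with log2 fold changes of 0.93 for Krt24, 0.56 for Krt23, -0.28 for Krt10, 0.08 for Krt1 and -0.03 for Krt222, where Krt1 and Krt10 are the pair of keratinized epidermis. Krt90 did not pass the filter, with 4.35 CPM in LC3b-/- F1, 1.45 CPM in LC3b-/- F3 and at most 0.166 CPM elsewhere.

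Genes that work with keratins were counted in lists. All 10 filament linkers, the desmosomal and plakin proteins that anchor keratin, were higher in LC3b-/-, with a median log2 fold change of 2.76 and none called by edgeR (8 at an unadjusted p under 0.05, against 13.5% of all genes tested, and 7 called by DESeq2, against 6.85%). Desmoplakin (Dsp) had a log2 fold change of 2.67 (edgeR adjusted p = 0.112), periplakin (Ppl) of 3.70 (edgeR adjusted p = 0.0951) and Dst, whose neuronal and muscle forms are widely expressed, of 0.37 (edgeR adjusted p = 0.341). All 15 transcription factors of epithelia were higher too, with a median of 2.57 and none called by edgeR (12 at an unadjusted p under 0.05 and 11 called by DESeq2, against the same 13.5% and 6.85%). Among them Pitx1, Ovol1 and Ovol2, at no more than 0.907, 1.52 and 0.769 CPM in WT, passed the filter only together with their LC3b-/- counts. Their direction was therefore not independent of the filter, and the tally of the 15 is a description. Klf4 was at 1.13 (edgeR adjusted p = 0.128), Elf3 at 3.92 (0.096 by the same test) and Pax6, which RPE, neural retina and cornea all can express, at 0.67 (0.38). Of 16 intermediate filament genes other than keratins, 10 were higher and 6 lower, with a median of 0.28. EdgeR called none, 4 were higher at an unadjusted p under 0.05 and DESeq2 called 1 higher, against the same 13.5% and 6.85%. Vim, the filament of mesenchyme, was at 0.84, Lmna, a nuclear lamin, at 1.11 and Gfap, the filament of astrocytes and reactive Müller glia, at -2.55, and 0 of these 3 passed.

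**Figure D4:**
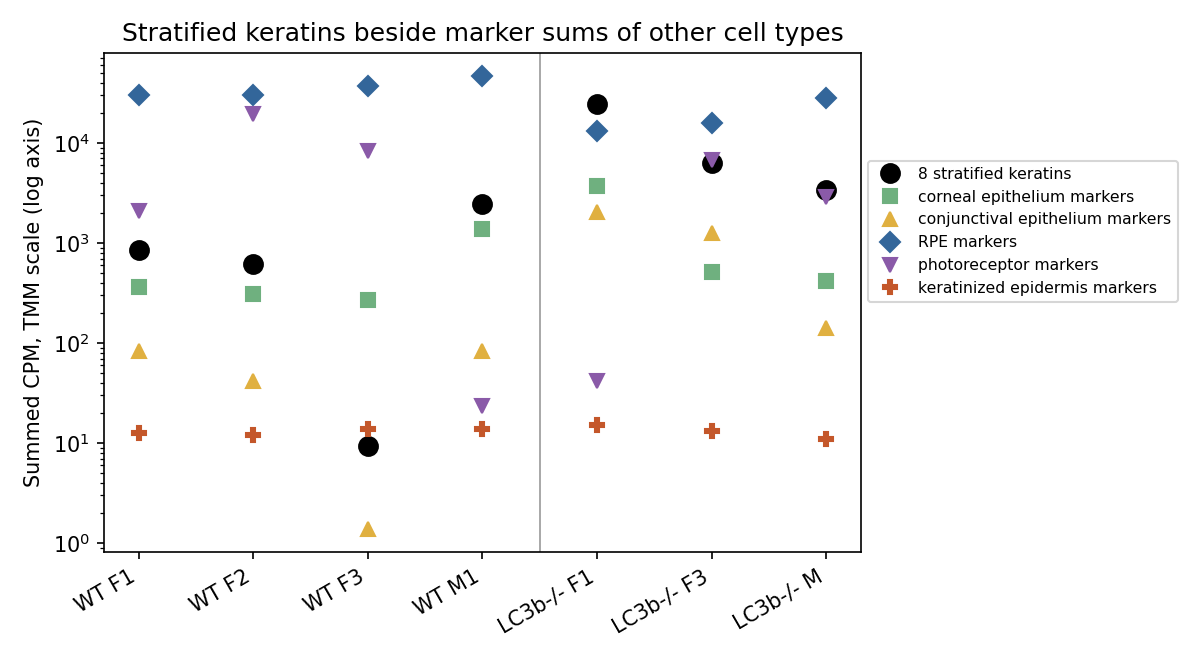
Summed CPM, on a log axis, of the 8 stratified keratins (black) and of marker lists of 5 cell types or tissues in each library. The keratin sum passes the RPE sum in LC3b-/- F1 alone, and the keratinized epidermis sum stays between 11.1 and 15.3 throughout.

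Some marker lists of other tissues were higher in the libraries with more stratified keratin and others were not, and their part in the keratin differences was not tested. The stratified keratins summed to 857, 614, 9.36 and 2450 CPM in WT and to 24264, 6278 and 3415 CPM in LC3b-/-. The 8 corneal epithelium markers other than Krt12 summed to 365, 307, 272 and 1387 CPM in WT and to 3739, 510 and 415 CPM in LC3b-/-, highest where Krt12 was highest. In WT M1 and LC3b-/- F1 most of the sum was Aldh3a1, at 787 and 2459 CPM. Most of it in the other libraries was Tkt, a metabolic enzyme of many tissues, at 218 to 294 CPM in WT F1, F2 and F3. Slurp1, secreted by corneal epithelium, was at 22.3 CPM in WT M1 and 17.4 in LC3b-/- F1. In the other 5 libraries it was at no more than 0.0585 CPM. Aldh3a1, Aqp5, Lypd2 and Tkt were also highest in WT M1 and LC3b-/- F1. Gjb6, Ly6d and Upk1b were not. Gjb6 was at 2.55 CPM in WT F1 and 0.115 in WT M1, and Ly6d was highest in WT F2, at 0.58 CPM. Upk1b was at 57.7 CPM in LC3b-/- F3 and 20.6 in WT M1. The 10 conjunctival epithelium markers summed to 84.1, 41.5, 1.39 and 84.0 CPM in WT and to 2029, 1260 and 141 CPM in LC3b-/-, in which the goblet cell and membrane mucin genes Muc5ac and Muc16 and the trefoil factor Tff1 never exceeded 3 counts. Muc4, a membrane mucin of mucosal epithelium, was at 17.6, 8.87, 0.262 and 15.1 CPM in WT and at 1006, 636 and 51.7 CPM in LC3b-/-. Spdef of the same list went the other way at low counts, with 0.205, 0.249, 0.262 and 0.0769 CPM in WT and 0, 0.0752 and 0.0886 CPM in LC3b-/-. It did not pass the filter. All 6 corneal markers and all 6 conjunctival markers that were tested were higher in LC3b-/-, with medians of 1.81 and 4.08 on the log2 scale, and edgeR called none. At an unadjusted p under 0.05, 1 and 6 were higher, against 13.5% of all genes tested, and DESeq2 called 1 and 3 higher, against 6.85%. Of these, Gjb6, Aqp5, Lypd2 and Psca passed the filter only together with their LC3b-/- counts, so their direction was not independent of the filter. The lists were also chosen with earlier results known, so nothing is read from these counts.

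The 9 markers of keratinized epidermis summed to 11.1 to 15.3 CPM in all 7 libraries, most of it Krt10 and Krt1. Ivl, involucrin of the cornified envelope, was low but higher in each LC3b-/- library, at 0.0293, 0, 0.0749 and 0.231 CPM in WT and 1.81, 1.58 and 0.413 CPM in LC3b-/-. Its log2 fold change was 3.87, but it passed the filter through its LC3b-/- counts, so its direction was not independent of the filter. In the same list Loricrin reached at most 0.903 CPM and Flg 0.176 CPM, and of the 3 tested 2 were higher and 1 lower (median 0.08, edgeR called none). Ivl alone was higher at an unadjusted p under 0.05, where 13.5% of all genes tested were, and DESeq2 called 1 gene higher, against 6.85%. The 10 RPE markers summed to 29895 to 47077 CPM in WT and to 13063, 15786 and 27977 CPM in LC3b-/- F1, F3 and M, with 9 of 10 lower at a median of -0.81 (edgeR called none). Of these RPE markers 5 were lower at an unadjusted p under 0.05, against 10.6% of all genes tested, and DESeq2 called 3 lower, against 3.2%. The LC3b-/- library with the least RPE marker sum was that with the most stratified keratin, and the WT library with the most RPE marker sum, WT M1, had the most stratified keratin in WT. Photoreceptor markers, 8 in all, ranged from 23.6 to 19635 CPM in WT and from 42.2 to 6762 CPM in LC3b-/-. All 8 were lower in LC3b-/- (median -1.18, overlapping between the genotypes), edgeR and DESeq2 called none and 0 were at an unadjusted p under 0.05. They were lowest in WT M1 and LC3b-/- F1, the 2 libraries with abundant Krt12. All 6 endothelial markers were higher (median 0.94, 170 to 546 summed CPM in WT and 672 to 720 in LC3b-/-), as were all 5 fibroblast markers (median 0.73) and all 4 skeletal muscle markers (median 0.54). Of 5 genes of ciliary and iris muscle or stroma 4 were higher (median 0.59), of 8 macrophage and microglia genes 3 were higher (median -0.15), of 2 neutrophil genes tested 1 was higher, and the single lens gene tested was lower (-0.78). EdgeR called 0 genes in each of these 7 lists. At an unadjusted p under 0.05, 2 endothelial genes and 1 gene each of the stroma and macrophage lists were higher, against 13.5% of all genes tested. The 1 lens gene was lower, against 10.6%, and the other 3 lists had 0. DESeq2 called 1 endothelial and 1 stroma gene higher, against 6.85%.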

How the data were processed

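RNA of mouse RPE was sequenced in 7 libraries, 1 per mouse, none pooled and none left out. The authors aligned reads to GENCODE vM26 transcripts of GRCm39 with Salmon, used tximeta for sums per gene, and deposited these estimated counts as whole numbers without any scaling for depth. All 7 count columns were used (0 unused). The 10 keratins and all gene lists were chosen with earlier results of these data known. Symbols, coordinates and sequences come from GENCODE vM39 on the same build, which matched 51721 of 52740 identifiers.

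The test was edgeR 4.0.16 in R 4.3.3 (filterByExpr, TMM, quasi-likelihood test of LC3b-/- against WT, no covariates, Benjamini-Hochberg adjustment over 16990 genes). A gene was called at a fold change of 1.5 or more with an adjusted p below 0.05. A gene low in WT could pass the filter through its LC3b-/- counts, or the reverse, so tallies of direction among tested genes are descriptions. The biological coefficient of variation was 0.398. Log2 CPM used a prior count of 2, and fold changes are fitted values. CPM are scaled by TMM, so a level is relative to the other RNA of its library. Shared sequence was measured as windows of 100 bases found exactly in another gene's transcripts. On simulated data at these depths, with 200 of the genes changed, edgeR called 91% of them and 10 unchanged genes, and DESeq2 called 96.5% and 84. The simulated counts used the spread that edgeR itself had fitted, and only genes above a minimum level were changed. The simulation therefore cannot rank the tests for genes as variable as these keratins.

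Named genes were all 10 keratins, the 12 other keratins of highest mean CPM, the 3 genes of highest mean CPM of the lists of filament linkers, transcription factors and other intermediate filaments, and the 5 genes nearest to Krt5, Krt12, Krt4 and Krt8; single genes of the marker lists were named after their values were seen. Alternatives were DESeq2 1.42.0, voom of limma 3.58.1, other scalings and filters, sex as a covariate, females only, a replicate block and each library left out. Samples with the same number, F1 and F3, come from different mice. The p-values measure the spread between mice, and 7 libraries limit their precision.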

Additional observations from a re-analysis of the deposited data

Results flagged for a closer look

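Among the 4 WT libraries, 15 tests for a single distant library were made on log2 CPM and count ratios, where chance gives about 1 in 20. WT F3 lay far below the others for Krt14, where its gap to the next library took 0.888 of the range of the 4, for Krt15 (0.899) and for Krt4 (0.905). WT M1 lay above the others for Krt8, with a gap of 0.867 of the range. The Krt6b to Krt6a count ratio of WT F3, from 4 and 28 counts, lay below the others with a gap of 0.985 of the range. The difference of Krt8 in log2 CPM was 0.34 between LC3b-/- and WT females, where the groups did not overlap, and -0.48 between the 2 males. The interaction of genotype and sex did not pass the threshold for Krt8, with 1 male per genotype. The causes were not tested.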

How the results depend on the processing

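The number of genes called moved from 40 to 1813 with DESeq2, 124 with voom, 78 with no filter, 197 with sex as a covariate, 96 in females only and 11 to 485 with 1 library left out. The lowest of these was without LC3b-/- F3 and the highest without LC3b-/- M. With WT F3 and LC3b-/- F1 left out 1 gene was called, and with WT M1 and LC3b-/- F1 left out 5 were, both choices made after seeing the data. DESeq2, which called 1813 of the 28835 genes with a count, called 5 of the 10 keratins. With sex as a covariate 1 (Krt18) was called, where 197 of 16990 genes were, and otherwise 0 were. With the same DESeq2 total, 9 other keratins, 7 filament linkers, 11 transcription factors and 1 other intermediate filament gene were called. The 9 include keratins that did not pass edgeR's filter, and among the 12 that did, DESeq2 called 7. Females only gave 2 other keratins, where 96 of 17434 genes were called. With 1 library left out the 4 lists had, in that order, 0 to 5, 0 to 1, 0 to 3 and 0 to 1 calls. The most in the first 3 came without LC3b-/- M, where 485 of 17553 genes were called. For other intermediate filaments the most came without WT F1, where 215 of 16753 genes were called. The log2 fold change of Krt12 ran from -4.78 without LC3b-/- F1 to 6.41 without WT M1, and was -5.25 without LC3b-/- F1 and WT F3, its highest and a low library, and none of the other 9 keratins was reversed by more than its spread. The median over the 10 keratins, 3.57, ran from 2.48 to 4.60 with 1 library left out.

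With a replicate block on mouse numbers, F1 and F3 of each genotype alone, 0 genes were called and the median of the 10 keratins was 7.02. Deviations of samples with the same number correlated at 0.15 (F1) and 0.24 (F3), from 2 pairs of different mice. DESeq2 reported more unchanged genes as called in simulated data than edgeR did, but those data used edgeR's own fitted spread. They do not decide between the tests for the keratins. With at least 10 counts in every library, Krt12, Krt4, Krt13 and Krt6b were not tested, since WT F1 or WT F3 was below that count. Low counts limit the values of Krt4, Krt13 and Krt12, which had 2 or 3 counts in their lowest library.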
